A study of Mus musculus with 4 samples.

Results

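The lipogenesis genes described here are 10 genes of fatty acid synthesis from carbohydrate carbon: Fasn, Acaca, Acacb, Acly, Scd1, Elovl6, Me1, Srebf1, Mid1ip1 and Thrsp. They were chosen by name from the pathway, and a gene's values came from its brightest non-control probe. Of the 10, 9 had a probe under their own gene name in the scanner files, among 27962 gene names on the array, and these 9 had 15 probes. Me1 had no probe under that name. Its probes carry the older symbol Mod1, which was linked to Me1 through the accession of the dimmer probe. They are given beside the 9 without entering the counts.

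The study measured liver and spleen RNA of male C57BL/6J mice, an inbred strain, aged 13 weeks, on 2-colour Agilent whole-genome oligonucleotide arrays. The low-NP group ate a purified diet holding 0.03% nucleic acids. The NP group ate the same diet with 1.2% of the nucleoprotein product S-nuclegen, which brought nucleic acids to 0.5%, for 4 weeks. RNA was pooled within each diet and tissue before labelling, and each pair of pools was hybridised on 2 arrays with the dyes exchanged. All 4 arrays lay on 1 slide. The labels number these arrays as pooled samples 1 and 2 and call them a dye swap, and they were taken to hold the same pools, with a number of mice that the labels do not give. On that reading each diet has 1 pool per tissue, and no test between diets was run. Every SD of a ratio below is over the 2 arrays of a tissue and on that reading measures technical spread. If the arrays held separate pools, each SD would hold the spread between 2 pools as well as that between dyes. The housing notes name a standard chow, and the pools carry no genetic modification in the labels.

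Fatty acid synthesis starts in the cytosol, where ATP citrate lyase (Acly) cleaves citrate to acetyl-CoA. Acetyl-CoA carboxylase (Acaca, and Acacb at the mitochondrial surface) makes malonyl-CoA, fatty acid synthase (Fasn) builds palmitate from it, and Elovl6 and Scd1 elongate and desaturate the product. In liver these genes are known to be driven by insulin through the transcription factor encoded by Srebf1 and by carbohydrate through ChREBP (Mlxipl), while the related proteins encoded by Thrsp and Mid1ip1 act on acetyl-CoA carboxylase and its assembly into filaments. Liver and adipose tissue are the main sites of the pathway, and the spleen is not known as one.

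Values below are log2 ratios of the NP pool over the low-NP pool, so that a negative ratio is lower in the NP pool. A gene was called when the ratio passed 1.5-fold, a log2 ratio of 0.585, in the same direction on both arrays. Genes counted as measured in a tissue are those with a probe that the scanner software marked well above background, on each of the 2 arrays, in either colour. In bulk RNA, fewer cells of a type and less RNA per cell cannot be told apart.

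In the NP liver pool, 7 of the 9 members were above the low-NP pool on both arrays (5 with median centring, 8 with the scanner software's processed ratios), and 1, Mid1ip1, passed the call. In the NP spleen pool, all 9 were below the low-NP pool on both arrays, and Fasn, Acacb, Scd1, Elovl6 and Thrsp were called lower, from 2.62-fold for Fasn to 6.47-fold for Thrsp. The spleen ratio lay below the liver ratio for each of the 9. Markers of hepatocytes changed in the spleen pools by more than any member, and those values stand beside the spleen results.

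Across all measured genes, the liver had 12 of 17100 called higher in the NP pool (0.0702%) and 621 called lower (3.63%), and the spleen had 8 of 18567 called higher (0.0431%) and 1175 called lower (6.33%). With the scanner software's own processed ratios the liver counts were 303 higher and 1755 lower. Between 58.6% and 94.7% of probes per array and channel were well above background. Spleen array 1 stood apart, with a median negative-control signal of 307 in the NP channel and 156 in the low-NP channel, against 62.7 to 74 in the other channels. Both tissues carried the markers of both, since all 20 hepatocyte and all 14 B cell markers were measured in each. In units of 1000 on the linear signal scale, the summed level of the hepatocyte markers was 1905 to 3186 in the liver pools. It was 24.7 to 81.5 in NP spleen and 2037 to 2789 in the pool labelled low-NP spleen. This last sum lay within the range of the liver pools, a hepatocyte signal that goes against the pool's label. A sum is weighted to the brightest markers. Gene by gene, the excess in low-NP spleen over NP spleen had a median of 38.2% of the NP liver level. This was over the 18 markers without saturated spots, with a range of 16.3% to 222%. The low-NP spleen pool also had B cell markers at 464 to 527, near the 539 to 555 of NP spleen. They stood at 107 to 121 in low-NP liver and 12.2 to 17.1 in NP liver. This is the only low-NP spleen pool, so no spleen ratio below can be given without it. In liver, 13 of 14 B cell markers and 8 of 12 T cell markers were called lower in the NP pool, with medians of -2.28 and -1.65. In spleen, all 20 hepatocyte markers were called lower, with a median of -5.65.

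The promoters of 3 members are shown because they bracket the results, with Fasn as the central enzyme, Thrsp as the member with the most negative spleen ratio and Mid1ip1 as the member called in liver. Each line is the 250 bases upstream of a RefSeq transcript start on GRCm38.p6, read in the direction of transcription. Capitals mark CCAAT (the CCAAT box) in Fasn and Thrsp and GGGCGG (the GC box, a site for Sp-family factors) in Mid1ip1, each on either strand. The windows are chr11:120824548-120824797 on the minus strand for Fasn, chr7:97417551-97417800 on the minus strand for Thrsp and chrX:10717115-10717364 on the plus strand for Mid1ip1.
Fasn: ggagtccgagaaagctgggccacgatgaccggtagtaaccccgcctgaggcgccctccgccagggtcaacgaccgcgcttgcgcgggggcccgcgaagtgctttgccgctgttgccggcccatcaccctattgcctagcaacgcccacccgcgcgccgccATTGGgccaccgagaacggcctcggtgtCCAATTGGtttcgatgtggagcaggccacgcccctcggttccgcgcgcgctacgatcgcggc
Thrsp: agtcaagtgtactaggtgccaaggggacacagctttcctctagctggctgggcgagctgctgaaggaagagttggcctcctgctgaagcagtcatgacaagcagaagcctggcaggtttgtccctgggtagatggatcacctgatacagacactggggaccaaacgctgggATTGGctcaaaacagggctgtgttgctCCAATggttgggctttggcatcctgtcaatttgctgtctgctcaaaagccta
Mid1ip1: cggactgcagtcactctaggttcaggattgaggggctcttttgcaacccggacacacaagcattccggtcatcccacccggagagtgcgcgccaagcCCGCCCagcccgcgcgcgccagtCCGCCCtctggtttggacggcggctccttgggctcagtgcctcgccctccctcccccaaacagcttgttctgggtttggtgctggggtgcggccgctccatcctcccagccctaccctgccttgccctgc

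Of the 10 members, 9 had a window in the RefSeq table, with 12 windows in all because Srebf1 has 3 and Me1 has 2. Scd1 is named only. The CCAAT box was found in 6 of the 12 windows, belonging to 5 genes (Fasn, Acacb, Me1, Srebf1 and Thrsp), and is held by 33.8% of the 32851 windows in the table. Fasn held 3 of these matches, of which those at 62 to 58 and at 59 to 55 bases upstream overlap on opposite strands, and the other lay 90 to 86 bases upstream. Thrsp held 2, at 79 to 75 and 52 to 48 bases upstream. The GC box was found in 5 windows of 4 genes (Acly, Me1, Srebf1 and Mid1ip1) and is held by 32.7% of all windows. The letters CACGTG, an E-box, were searched on both strands and were in 0 of the 12 windows, against 6.02% of all windows. A match or its absence describes the letters in these windows only.

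Among the regulators, and among all 9 members, Mid1ip1 had the highest mean ratio in liver. Mid1ip1, whose product promotes the assembly of acetyl-CoA carboxylase into filaments, had ratios of 0.84 on array 1 and 0.60 on array 2. Its mean of 0.72 ± 0.17 (SD, n = 2 arrays of the same pools) is 1.65-fold, and its value on array 2 lay just inside the threshold. Mid1ip1 was thus the 1 of 9 members called higher, against 0.0702% of all measured genes. The call was lost with the scanner software's processed ratios (0.90 and 0.56), with the deposited value table (0.90 and 0.56) and with centring of each array on its median in place of the intensity-dependent fit (1.73 and 0.20).

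Srebf1, which encodes the SREBP-1 transcription factors, had liver ratios of 0.60 and 0.44, with a mean of 0.52 ± 0.12. Both arrays were above 0, though array 2 was at -0.09 with median centring, and array 2 lay outside the threshold, so that Srebf1 was just outside the call where Mid1ip1 was just inside. Thrsp, the Spot 14 gene and paralog of Mid1ip1, had ratios of -0.02 and 0.30 (mean 0.14 ± 0.23) and its arrays lay on both sides of 0.

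Among the enzymes in liver, the early steps had small positive ratios. Acly had 0.16 and 0.36, with a mean of 0.26 ± 0.14. Acaca, the cytosolic carboxylase, had 0.39 and 0.36, with a mean of 0.37 ± 0.02, the closest pair of arrays among the members. Acacb, whose malonyl-CoA limits fatty acid entry into mitochondria, had 0.29 and 0.64, with a mean of 0.47 ± 0.25. These 3 genes were above 0 on both arrays and none reached the call.

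The elongase Elovl6, which extends palmitate to stearate, had liver ratios of 0.45 and 0.58, with a mean of 0.51 ± 0.10. Malic enzyme Me1, a source of NADPH for the synthase, had 0.36 and 0.20 (mean 0.28 ± 0.11) at its brighter probe and a mean of 0.19 ± 0.01 at its other probe. Both genes were above 0 on both arrays and outside the call.

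Fasn and the desaturase Scd1 were the 2 members whose liver arrays differed most. The Fasn ratios were 1.06 and 0.11, with a mean of 0.59 ± 0.67. Scd1 had 0.72 and -0.29, with a mean of 0.22 ± 0.71, so its arrays lay on opposite sides of 0. With the scanner software's processed ratios both arrays were above 0 for Scd1 (0.49 and 0.12), and Fasn had 0.88 and 0.54. Median centring drew the arrays further apart, to 2.04 and -0.84 for Scd1 and 2.40 and -0.46 for Fasn. Both differences between arrays, 0.95 for Fasn and 1.01 for Scd1, were in the direction shared by the brightest probes. Over the 217 measured liver genes at least as bright as Fasn, the median ratio was -0.24 on array 1 and -0.69 on array 2, with a median difference of 0.53, and the 20 hepatocyte markers had medians of 0.59 and -0.43 on the 2 arrays. The part of dye or signal intensity in the Fasn and Scd1 values was not tested.

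**Figure D1:**
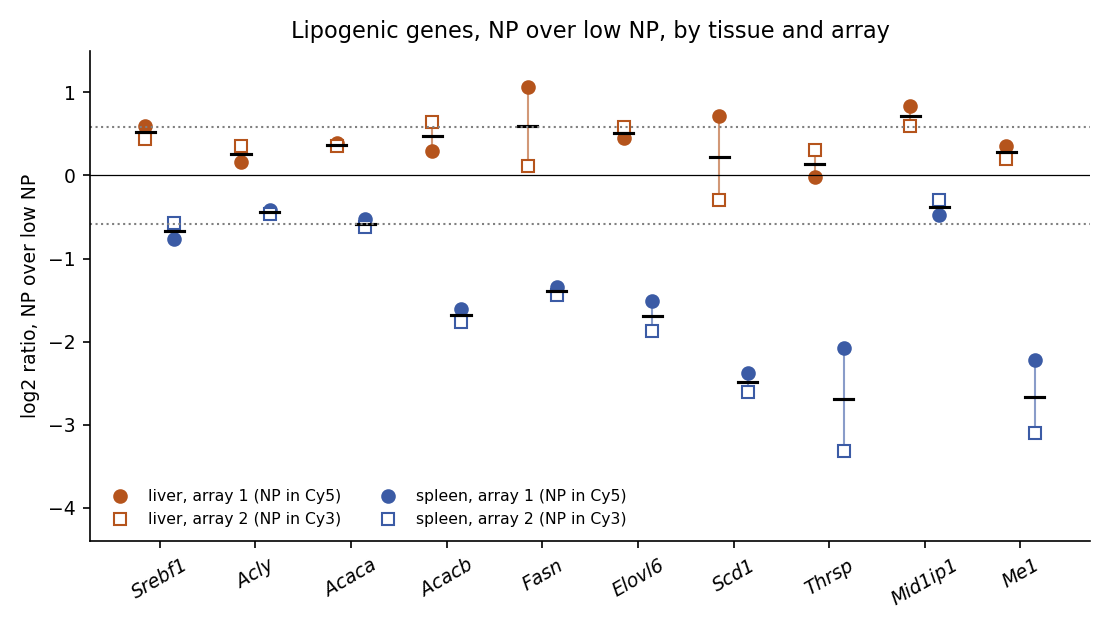
Log2 ratio of the NP pool over the low-NP pool for the 10 genes in liver and spleen, with 1 point per array, the mean as a bar and the 1.5-fold threshold as dotted lines; Me1 is read from probes named Mod1. Liver means lie between 0.14 and 0.72, and spleen means of the 9 counted members lie between -2.69 and -0.38.

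Over the 9 members the liver median was 0.47 (0.45 on array 1 and 0.36 on array 2), beside 0.00 over all measured genes. The 7 members above 0 on both arrays compare with 29.2% of all measured genes. With median centring they were 5, against 12.9% of genes, and with processed ratios 8, against 43.3%. No member was called lower, against 3.63% of all measured genes, and none was below 0 on both arrays, against 30.7%. Among the markers of other cells in these liver pools, hepatocyte markers had a median of 0.08 with 0 of 20 called. The summed level of the 14 B cell markers was 12.2 to 17.1 in the NP pool and 107 to 121 in the low-NP pool, in units of 1000 on the linear signal scale, with 1 of 14 not well above background in the NP pool. Exocrine pancreas markers were called lower for 14 of 14, with a median of -1.03 and summed levels of 218 to 244 against 480 to 504 in the same units. Macrophage markers were called lower for 4 of 13, with a median of -0.40, and adipocyte markers for 0 of 9, with a median of 0.13. The part of these other cell types in the members' liver ratios was not tested.

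In spleen, the members with the most negative ratios were Thrsp, Me1 and Scd1. Thrsp had ratios of -2.08 and -3.31, with a mean of -2.69 ± 0.87, which is 6.47-fold lower in the NP pool. Its NP and low-NP levels did not overlap, and the distance between its arrays was the widest of the members in spleen. Me1, read from Mod1 probes, had -2.22 and -3.10 (mean -2.66 ± 0.62, 6.31-fold lower), and its other probe was called lower too, with a mean of -1.84 ± 0.32. Scd1, the main liver stearoyl-CoA desaturase, had -2.38 and -2.60, with a mean of -2.49 ± 0.16, or 5.61-fold lower.

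The elongase and the mitochondrial-surface carboxylase lay close together in spleen. Elovl6 had ratios of -1.51 and -1.87, with a mean of -1.69 ± 0.25 and a 3.23-fold lower level. Acacb had -1.61 and -1.76, with a mean of -1.68 ± 0.11 and a 3.21-fold lower level. Fasn, the synthase that makes palmitate, had -1.34 and -1.44, with a mean of -1.39 ± 0.07 and a 2.62-fold lower level. The SD over the Fasn arrays was thus 0.07 in spleen, where it was 0.67 in liver.

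The other 4 members were below 0 on both spleen arrays and outside the call. Srebf1 had ratios of -0.77 and -0.57, with a mean of -0.67 ± 0.14, and was the nearest to the threshold. It was called lower when arrays were centred on their medians (-0.71 and -1.20). Acaca had -0.53 and -0.62, with a mean of -0.58 ± 0.07. Acly had -0.41 and -0.47, with a mean of -0.44 ± 0.05. Mid1ip1, called higher in liver, had -0.48 and -0.29 in spleen, with a mean of -0.38 ± 0.14.

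Thus 5 of 9 members were called lower in spleen, against 6.33% of all measured genes, and 0 were called higher, against 0.0431%. All 9 were below 0 on both arrays, against 36.3% of measured genes, with a median of -1.39 (-1.34 and -1.44 on the 2 arrays) beside -0.02 for all genes. Hepatocyte markers moved the same way in these pools. Their summed level was 24.7 to 81.5 in NP spleen and 2037 to 2789 in low-NP spleen, in units of 1000 on the linear signal scale, and all 20 were well above background in at least 1 NP array. Exocrine pancreas markers were also called lower for 14 of 14, with a median of -2.13 and summed levels of 303 to 539 against 1821 to 2034 in these units. Of the adipocyte markers, 0 of 9 measured were called, with a median of -0.01. Summed over the 12 with a probe, their levels were 31.8 to 32.3 against 35 to 36.2. Of the B cell markers 0 of 14 were called, and of the T cell markers 0 of 12. Of 13 macrophage markers 2 were called lower, with a median of 0.12 over the list. The part of hepatocyte or pancreas RNA in the members' spleen ratios was not tested.

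**Figure D2:**
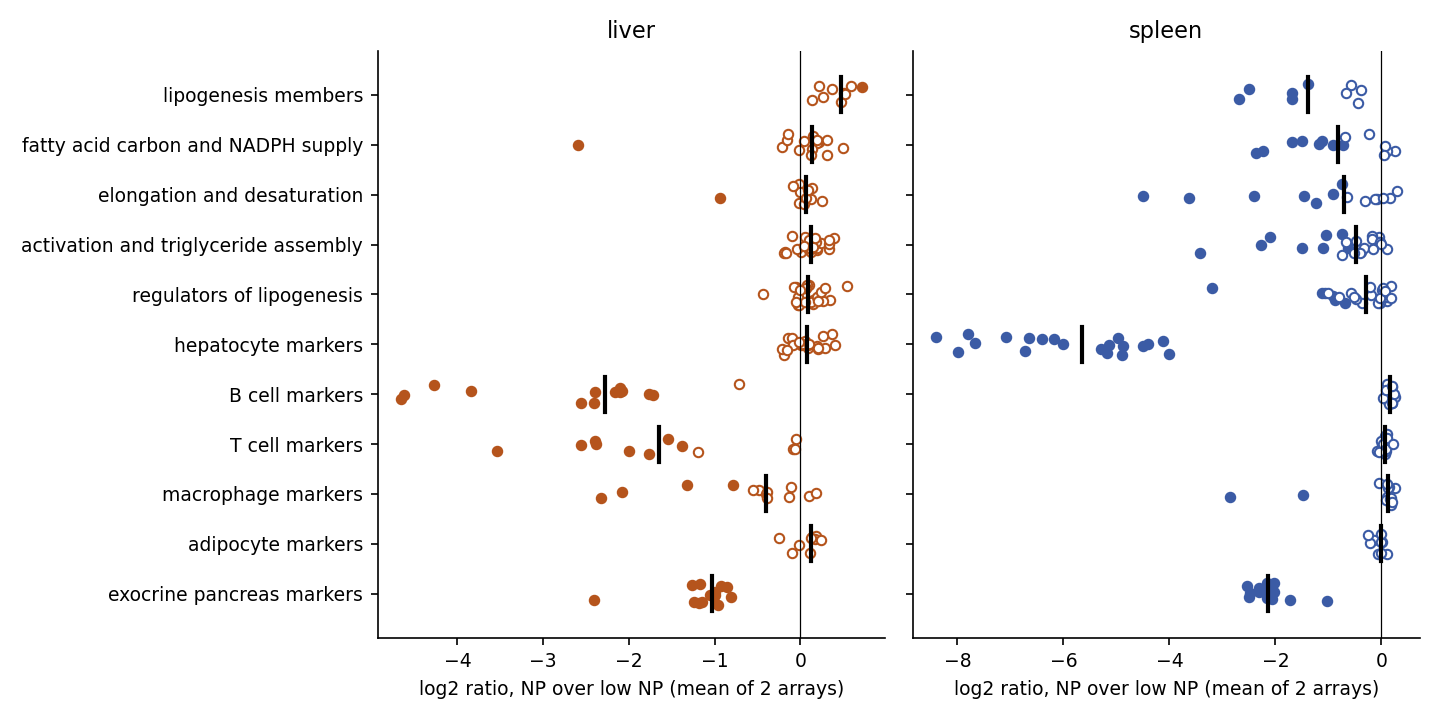
Log2 ratio of the NP pool over the low-NP pool (mean of 2 arrays) for each measured gene of the members, the 4 pathway lists and the 6 marker lists in each tissue, with 1 point per gene, filled where the gene was called, and a bar at the list's median. In spleen the members have a median of -1.39 and the hepatocyte markers -5.65, while in liver the members have 0.47 and the B cell markers -2.28.

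The 2 tissues were compared gene by gene. For 7 of 9 members, all but Scd1 and Thrsp, both liver arrays were above 0 and both spleen arrays below 0, a pattern held by 18.5% of the 16606 genes measured in both tissues. With median centring Fasn and Srebf1 left this group, which then held 5 members against 4.39% of genes, and with processed ratios Scd1 joined it, for 8 members against 15% of genes. For all 9, both liver arrays lay above both spleen arrays, against 31.6% of genes. The spleen ratio minus the liver ratio had a median of -1.98 and ran from -2.84 in Thrsp to -0.70 in Acly. It was -1.98 for Fasn, -1.19 for Srebf1 and -1.11 for Mid1ip1. With 1 pool per diet and tissue this difference has no test. The hepatocyte markers had medians of 0.08 in liver and -5.65 in spleen, beside 0.47 and -1.39 for the members. The part of hepatocyte RNA in the difference between tissues was not tested.

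The levels of the 4 pools, on a log2 scale after scaling between arrays, had the same order for each of the 9 members and for Me1, from NP liver through low-NP liver and low-NP spleen to NP spleen. The share of all measured genes with this order was not counted. Fasn stood at 17.04 and 16.97 in NP liver, 15.98 and 16.86 in low-NP liver, 15.62 and 15.55 in low-NP spleen, and 14.27 and 14.12 in NP spleen on arrays 1 and 2. None of its neighbouring pools overlapped. Srebf1 stood at 16.10 and 16.19 in NP liver, 15.50 and 15.76 in low-NP liver, 14.47 and 14.55 in low-NP spleen, and 13.71 and 13.98 in NP spleen, again without overlap.

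Thrsp stood at 15.31 and 15.39 in NP liver and at 15.33 and 15.09 in low-NP liver, so its liver pools overlapped. In low-NP spleen Thrsp was at 13.75 and 13.65, and in NP spleen at 11.67 and 10.34. Mid1ip1 stood at 13.99 and 14.09 in NP liver, 13.15 and 13.49 in low-NP liver, 12.51 and 12.41 in low-NP spleen, and 12.03 and 12.13 in NP spleen, with no overlap. In all, 6 of the 9 had no overlapping neighbours. The share of all measured genes without overlap was not counted either, so neither trait is shown to be particular to the members. The liver pools overlapped for Scd1 and Thrsp, and the spleen pools overlapped for Acaca.

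As the ratios above imply, the tissues lay further apart in the NP pools than in the low-NP pools. NP liver over NP spleen ran from 2.33-fold for Acly to 20.3-fold for Thrsp, and low-NP liver over low-NP spleen from 1.44-fold for Acly to 4.15-fold for Elovl6. Scd1, for example, was 12.1-fold higher in liver than in spleen in the NP pools and 1.86-fold higher in the low-NP pools. For Fasn these were 7.02-fold and 1.78-fold, and for Srebf1 4.94-fold and 2.17-fold. The 5 members called lower in spleen had log2 contrasts of NP liver over NP spleen between 2.81 and 4.35, and the 4 not called lay between 1.22 and 2.51. These contrasts share the NP spleen signal with the spleen ratio, so this order is a description only.

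**Figure D3:**
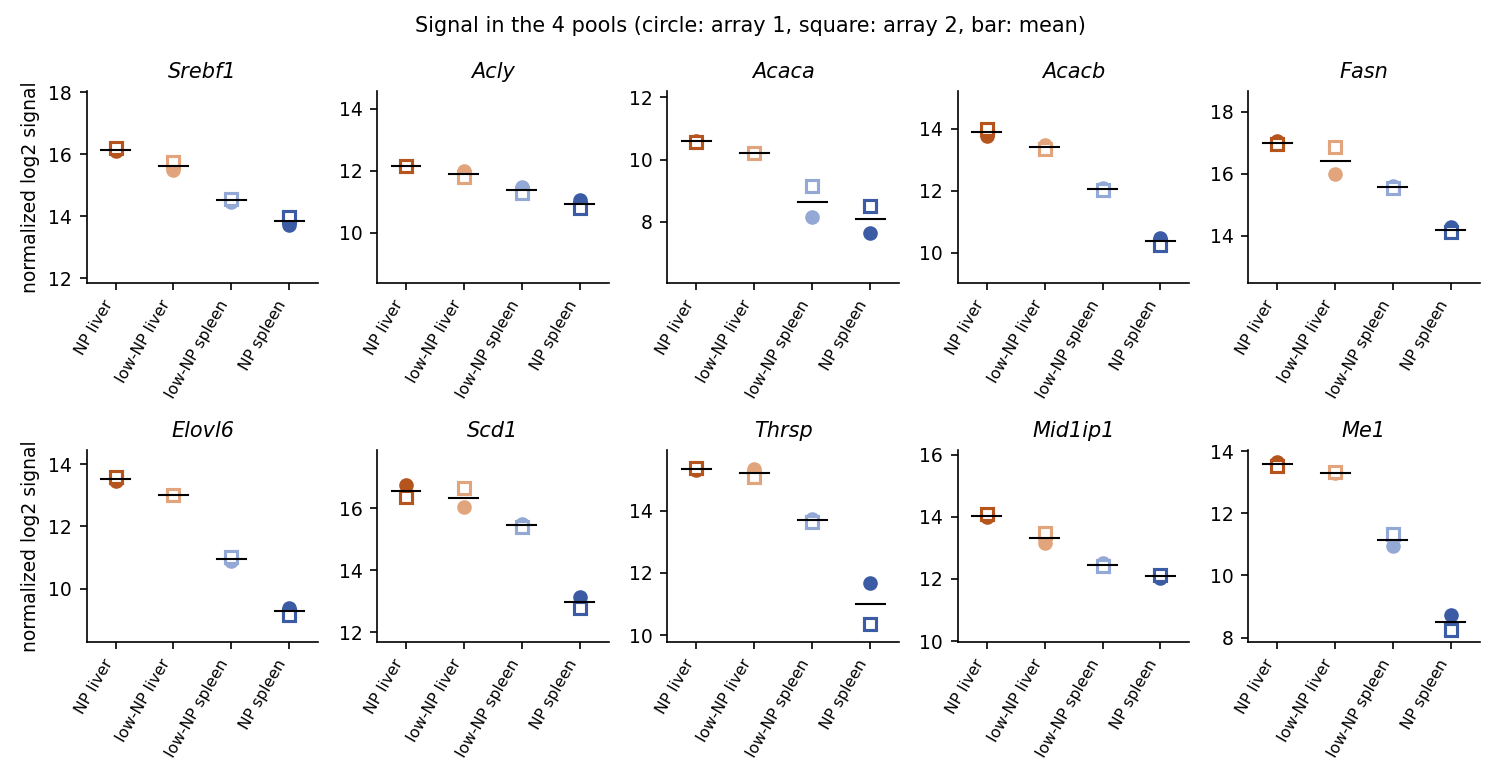
Normalized log2 signal of each gene in NP liver, low-NP liver, low-NP spleen and NP spleen, with 1 point per array; levels compare pools within a gene, not genes with each other. The order of the pools is the same in every panel, and the Thrsp panel has the widest distance from NP liver to NP spleen among the 9 counted members.

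The excess of each member in low-NP spleen over NP spleen was also set against its level in NP liver. Each share joins the spleen and liver arrays of the same number, and its SD is over the 2 array numbers. It came to 23.1% ± 0.745 of the NP liver level for Fasn, 38.3% ± 6.55 for Scd1, and 26.4% ± 0.805 for Thrsp. At the low end were Mid1ip1 with 7.90% ± 3.23, Acaca with 9.30% ± 5.18 and Elovl6 with 11.6% ± 0.876. Srebf1 had 11.9% ± 2.03, Acly 15.2% ± 0.137, Acacb 19.5% ± 1.94 and, outside the count, Me1 15.7% ± 5.06. The median over the 9 members was 15.2%, with a range of 7.90% to 38.3%, and the 18 hepatocyte markers without saturated spots had a median of 38.2% and a range of 16.3% to 222%. The ranges overlap, and signal on an array is not proportional to RNA over its whole scale, so these shares are descriptions of signal.

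Several members had probes that disagreed, and the starts of the Fasn and Acaca probes are shown to tell them apart. Each line is the first 30 of 60 bases of a probe as the array's design gives it, with no letters in capitals, and probe 1 is the brightest.
Fasn probe 1: gcttgggttttgacttttctgcagctgtca
Fasn probe 2: attggtagggtacaaaggtgttcagaggat
Acaca probe 1: gaagatgatcataactcgtataacatccag
Acaca probe 2: gccccacattcccagagtctggtcatactt
Acaca probe 3: tgaaggggaatccaggtacaagataacaga
Acaca probe 4: tcccatccaaacagagggaacatccccacg

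In the coordinates of the array's design (mm7), Fasn probe 1 lies at chr11:120916191-120916250 and probe 2 at chr11:120915397-120915456, both on the minus strand. Acaca probe 1 lies at chr11:84470765-84470824 on the plus strand, downstream of the other 3. The ends of Acaca probes 2, 3 and 4 align 1004, 4001 and 12416 bases apart, at chr11:84363852-84364855, chr11:84411918-84415918 and chr11:84350405-84362820. The exon or untranslated region under each probe was not analysed here.

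Fasn probe 2 had spleen ratios of -0.35 and -1.47, which did not pass the call because of array 1, and liver ratios of 0.53 and 0.50, which were closer together than those of probe 1. Acaca probes 2 to 4 had spleen means of 0.08, 0.04 and 0.05, where probe 1 had -0.58. In liver their means were 0.11, 0.14 and 0.14, where probe 1 had 0.37. Acacb probe 2 (chr5:113406086-113410171) had a spleen mean of 0.16 ± 0.29, against -1.68 at probe 1 (chr5:113472402-113472462). It was not well above background in either spleen pool on array 2. The second Acly probe was not well above background in either liver pool and had a spleen mean of -0.08 ± 0.08. With the median over all probes of a gene, the members' spleen median was -0.76 in place of -1.39 and the liver median 0.31 in place of 0.47. The call for Fasn in spleen and the ratios of Acaca and Acacb therefore depended on the probe. Acaca probes 2 to 4 were dim in liver, at log2 levels of 8.01 to 8.33 against 10.21 to 10.61 at probe 1. In spleen they stood at 7.58 to 9.04, and probe 1 at 7.64 to 9.14. Acacb probe 2 stood at 8.07 to 8.35 in liver, against 13.34 to 13.99 at probe 1. The medians over all probes include these dim probes, and the part of low signal in their ratios was not tested.

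**Figure D4:**
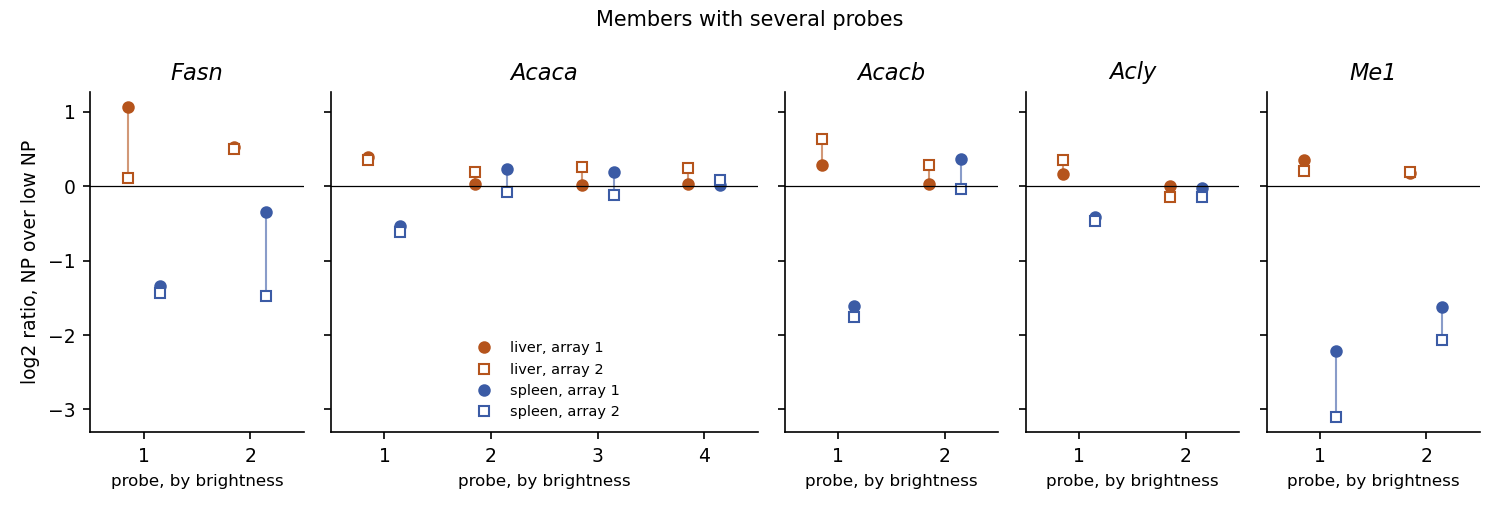
Log2 ratio of the NP pool over the low-NP pool for every probe of the members with more than 1 probe, with 1 point per array. Acaca probe 1 has a spleen mean of -0.58, and its probes 2 to 4 have means of 0.08, 0.04 and 0.05.

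The wider pathway was read from 4 lists of genes around the members, with 79 genes, of which 78 had a probe and 75 were measured in each tissue. In liver, 0 of the 75 were called higher, against 0.0702% of all measured genes, and 2 called lower, a share near the 3.63% of all measured genes, with a median of 0.10 and 53 above 0. In spleen, 0 were called higher, against 0.0431%, and 29 lower, against 6.33%, with a median of -0.51. All 29 were at least 2-fold higher in NP liver than in NP spleen, as were 17 of the 46 not called. This contrast shares the NP spleen signal with the spleen ratio, so these counts are a description only. The share of all measured genes with such a contrast was not counted.

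Genes that supply carbon and NADPH were called lower in spleen for 8 of 14 measured. Khk, which phosphorylates fructose, had a spleen ratio of -2.24 ± 0.24. Acss2, the cytosolic acetyl-CoA synthetase, had -1.68 ± 0.23, and Pfkfb1, the liver isoform of a bifunctional enzyme that controls glycolysis, had -1.49 ± 0.54. In liver, 1 of 15 was called lower, the mitochondrial acetyl-CoA synthetase Acss1, at -2.59 ± 1.16. Acss1 was far brighter in spleen, with a log2 contrast of NP liver over NP spleen of -5.41. This contrast shares the NP liver signal with the liver ratio.

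Elongases and desaturases were called lower in spleen for 7 of 14. Elovl2, which extends polyunsaturated fatty acids, had -4.50 ± 0.61 and Elovl3 had -3.63 ± 0.54. Fads2, the delta-6 desaturase, had -2.41 ± 0.83 and Elovl5 had -1.24 ± 0.11. In liver, 1 of 13 was called lower, Scd2, the stearoyl-CoA desaturase isoform of many tissues outside liver, at -0.94 ± 0.32. Scd2 likewise had a higher signal in spleen than in liver, with a contrast of -2.91. That contrast shares the NP liver signal with the liver ratio too.

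Genes of fatty acid activation and triglyceride assembly were called lower in spleen for 8 of 23. Dgat2, which adds the last acyl chain of triglyceride, had -3.43 ± 0.23 and the acyl-CoA synthetase Acsl1 had -2.27 ± 0.07. The lipid droplet coat genes Plin2 and Plin5 had -1.10 ± 0.06 and -2.10 ± 1.52. In liver 0 of 23 were called, and the extremes were Acsl4 at 0.39 ± 0.37 and Lpin1 at -0.19 ± 0.15.

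Regulators were called lower in spleen for 6 of 24. Mlxipl, which encodes the carbohydrate-responsive factor ChREBP, had -3.20 ± 0.89, a larger difference than that of Srebf1. The hormone gene Fgf21 had -1.06 ± 0.40 and Insig2, which retains SREBP precursors in the endoplasmic reticulum, had -0.92 ± 0.36. Prkaa2, a catalytic subunit of AMP-activated kinase, was not well above background in NP spleen and was at least 2.16-fold lower there. In liver 0 of 24 were called, with Irs1 at 0.54 ± 0.65 and Foxo1 at -0.43 ± 0.04 as the extremes. The hepatocyte and pancreas markers lower in the same spleen pool stand above, and their part in these lists was not tested.

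The genes whose 8 levels (4 pools on 2 arrays each, centred per gene) lay nearest those of Fasn, among 12930 genes ranked, were Cisd1 (listed as Zcd1) at a Euclidean distance of 0.53, Dhcr7 at 0.55, H2bc4 (listed as Hist1h2bc) at 0.58, Idi1 at 0.59 and Stard4 at 0.60. Dhcr7 and Idi1 encode enzymes of cholesterol synthesis and Stard4 a sterol carrier. Idi1 had a liver ratio of 0.47 and a spleen ratio of -1.43. For Srebf1 the nearest were Myo6 at 0.25, Sirt5 at 0.26, P2ry2 and Slc35d2 at 0.34 and Slc35f5 at 0.35. Myo6 had ratios of 0.43 in liver and -0.50 in spleen. The 8 levels of all genes come from the same 4 arrays, and the distances carry no test.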

How the data were processed

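Per the labels, RNA was pooled within each diet and tissue before labelling, and the deposited scanner files hold the red and green intensity of every spot as read by Agilent Feature Extraction 9.5.3.1, per the submitters' processing notes. The files hold no counts, and precision is limited by the 4 arrays. The processed log ratio in those files and the authors' deposited value table are log10 ratios. The value table runs as low NP over NP, opposite to the direction used here, as shown by its correlation with the scanner ratios (-0.992, 0.991, -0.993 and 0.998 before turning the dyes). Its column medians are 0.02, -0.07, -0.01 and -0.04, and how it was scaled remains unknown.

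Mean signals were corrected for background with normexp (offset 50) and normalized within arrays by loess, with control and outlier spots at weight 0, in limma 3.58.1 under R 4.3.3. Pool levels were scaled between arrays by Aquantile. Red over green ratios were turned to NP over low NP. The labels number the 2 arrays of a tissue as pooled samples 1 and 2 of a dye swap. They were taken as the same pools and counted as 1 replicate, and no test was run. With separate pools a model over 2 replicates per diet could have been fitted. Bounds for dim genes use the lowest signal among probes well above background on each array, per channel, and remain open to dye bias. Calculations ran in Python 3.11.15 with numpy 2.4.6 and pandas 2.3.3, and the calling step was tested on simulated data.

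All members are named. From each list and tissue, up to 4 called genes with the largest smaller-array ratio are named, or the highest and lowest gene where none was called. A gene that this rule names is not reported here. The likeness measure names 5 genes. Across 10 lists, 163 of 164 genes had a probe, 16 entries through an older name or accession. Marker lists that are not named gene by gene are given by counts. Members and lists were chosen with earlier results of these data known. Alternatives covered background correction, normalization, the value table, thresholds, probe choice, dim probes, the scaling of levels and each array alone. Promoters are from RefSeq.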

Additional observations from a re-analysis of the deposited data

Results flagged for a closer look

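For 7 of the 9 members both liver arrays lay above 0 and both spleen arrays below 0, so that the NP over low-NP ratio ran in opposite directions in the 2 tissues. With median centring this held for 5 members, without Fasn and Srebf1, whose liver ratio on array 2 was then -0.46 and -0.09. The spleen ratio minus the liver ratio, in log2, was -2.20 for Elovl6, -2.15 for Acacb and -1.98 for Fasn. It was -1.19 for Srebf1, -1.11 for Mid1ip1, -0.95 for Acaca and -0.70 for Acly. Each tissue was taken to have 1 pool per diet, and the difference was not tested. Of all genes measured in both tissues, 18.5% had this pattern. It is a pattern of signs, and none of the 7 was called in both tissues. Mid1ip1 alone was called in liver, and Fasn, Acacb and Elovl6 alone in spleen. With the median over all probes of a gene, 6 members had the pattern. Hepatocyte markers had a median of -5.65 in the same spleen pools, and their part in the difference was not tested.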

How the results depend on the processing

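No paired analysis was possible because no result comes from a test, the arrays of a tissue being taken as 1 pool per diet. The count of 1 liver member called higher was 0 with the scanner software's processed ratios, with median centring, with the deposited value table and at 2-fold, 2 (Mid1ip1 and Fasn) with 1.5-fold in the mean, and 2 to 4 with 1 array alone. The liver median of 0.47 was 0.72 with median centring, 0.31 over all probes and 0.36 to 0.45 with 1 array alone. The 2 liver pathway genes called were 4 with processed ratios and with the value table, 1 with median centring and at 2-fold, and 3 to 9 with 1 array alone. The spleen median of -1.39 was -1.68 with median centring, -0.76 over all probes and -1.54 with Me1, an alternative chosen after seeing the data. The 29 spleen pathway genes called were 15 at 2-fold. The spleen minus liver median of -1.98 was -2.61 with median centring, -1.19 over all probes and -1.50 to -2.02 with 1 array left out. The members' median share of 15.2% was 14.7% without background correction, 21.3% without scaling and 21.4% over NP liver minus NP spleen, also chosen after seeing the data. In these cases the cause was not tested. Spleen members called lower stayed at 5 to 6 in all alternatives run. Spleen members below 0 on both arrays were 9 with each normalization and 8 over all probes, and the order of pool levels held for all 9 without background correction and without scaling. Liver members above 0 on both arrays, and members with liver above 0 and spleen below 0, were 7 and 7, against 5 and 5 with median centring, 8 and 8 with processed ratios and with the value table, and 7 and 6 over all probes. Of 18 gene ratios (9 members in 2 tissues), 14 moved by more than the SD of their arrays with median centring, 3 with processed ratios, 3 with the value table, 1 without background correction and 6 over all probes. Signs of means changed for Scd1 in liver without array 1 (-0.29), Thrsp in liver without array 2 (-0.02) and Acaca in spleen over all probes (0.01).

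Over all measured genes, the 12 called higher in liver were 303 with processed ratios, 312 with the value table, 6 at 2-fold, 22 in the mean and 76 to 345 with 1 array alone. The 621 called lower were 1333 without background correction, 1755 with processed ratios, 324 with median centring, 1762 with the value table, 296 at 2-fold, 1199 in the mean and up to 1924 with 1 array. In spleen the 8 called higher were 48 with processed ratios and with the value table, 3 with median centring, 1 at 2-fold, 21 in the mean and 50 to 130 with 1 array, and the 1175 called lower were 775 at 2-fold. The median of all genes shifted by up to 0.11 in liver and to -0.15 in spleen under another scaling. High background on spleen array 1 limits dim probes.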
